A study of Mus musculus with 8 samples.

Results

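The nuclear-encoded genes of the respiratory chain and of the ATP synthase were examined in RNA-seq libraries of mouse lymphoid tissue inducer (LTi) cells. Every row of the gene table was taken whose symbol, read without regard to case, began with Nduf, Uqcr, Cox4 to Cox8 or Atp5, or was one of Sdha to Sdhd, leaving out pseudogene symbols. This gave 93 of 27179 genes, of which 45 belong to complex I, 4 to complex II, 8 to complex III, 20 to complex IV and 16 to complex V. The rule reads symbols only, but the set was chosen with earlier results of these data known. Of the 93, 86 had at least 1 RPKM (reads per kilobase of gene model, scaled to the library's depth) in at least 2 of the 8 libraries and were kept for testing. Ndufa4 was counted with complex IV, and Atp5sl, which RefSeq names Dmac2, was counted with the assembly factors of complex I.

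LTi cells are innate lymphoid cells that start lymph node and Peyer's patch formation in the embryo and make cytokines such as IL-22 in the adult gut. They were sorted from C57BL/6 mice as lineage-negative CD127+ CCR6+ cells without KLRG1, NK1.1 and NKp46, and RNA was sequenced after Smart-seq2, which amplifies cDNA from few cells by PCR. The 4 groups, with 2 libraries each, were LTi cells of the small intestine lamina propria (LP) of Tcf7fl/fl mice with a Cre allele, labelled Tcf7-KO, LP cells of Tcf7+/+ mice, labelled Ctrl, Peyer's patch (PP) cells labelled Tcf7-KO and PP cells labelled Ctrl. The Cre allele is not specific to LTi cells and also acts in the T lineage. For the Ctrl mice the labels name no Cre allele, and the age and number of mice behind a library are not stated. The labels do not say that replicates came from separate animals, so p-values measure only the spread between these libraries, which may be technical.

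The respiratory chain passes electrons through complexes I to IV of the inner mitochondrial membrane, complexes I, III and IV pump protons across it, and complex V, the ATP synthase, uses the proton gradient to make ATP. Most subunits are encoded in the nucleus and imported, while a small core is encoded in mitochondrial DNA and has to be assembled with them. Activated and proliferating lymphocytes are known to raise respiration together with glycolysis.

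Reads per library were estimated at 31.8 to 37.4 M. In LP, 7437 and 7843 genes reached 1 RPKM in libraries labelled Tcf7-KO and 8192 and 8433 in Ctrl. In PP, 8103 and 8039 genes did so in libraries labelled Tcf7-KO and 6411 and 6365 in Ctrl. PP Ctrl thus had the fewest such genes. The part of this lower count in the differences from PP Ctrl was not tested. The targeted gene Tcf7 had 237 and 215 RPKM in LP labelled Tcf7-KO and 229 and 246 RPKM in LP Ctrl, and 355 and 337 RPKM in PP labelled Tcf7-KO and 243 and 85.4 RPKM in PP Ctrl. Its level was not reduced under the knockout label, and the labels do not say which exons the floxed allele loses, so this whole-gene level does not check the labels. All 17 ILC3 and LTi markers were detected, with Il7r at 206 to 454 RPKM and Ccr6 at 89.3 to 597 RPKM. Their sum was 8546 to 10608 RPKM in LP and 7452 to 8369 RPKM in PP. Markers of other lineages were detected as well. The summed level of 18 epithelial markers was 344 to 971 RPKM in LP and 468 to 934 RPKM in PP. That of 12 myeloid markers, 3 of them at 0 throughout, was 5.68 to 99.9 RPKM in LP and 0.782 to 65.3 RPKM in PP. The summed level of 13 B and plasma cell markers (12 detected, Pax5 at 0 in all libraries) was 15783 to 25495 RPKM in LP and 5232 to 12351 RPKM in PP, most of it Igkc. The summed level of 10 T cell markers was 173 to 305 RPKM in LP and 459 to 804 RPKM in PP, with none at 0 in all libraries, and that of 10 stromal and endothelial markers, 5 of them at 0 throughout, was 28.1 to 64.4 RPKM in LP and 78.3 to 205 RPKM in PP.

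Respiratory chain genes were expressed at high levels in all 8 libraries. Together the 93 genes made up 2.05% and 1.99% of a library's summed RPKM in LP labelled Tcf7-KO, 2.15% in each LP Ctrl library, 3.09% and 3.36% in PP labelled Tcf7-KO and 3.71% and 3.55% in PP Ctrl. The median over the 93 genes was 68.8 to 82.5 RPKM in LP and 104 to 142 RPKM in PP. Every LP library was below every PP library in both measures. Over the 86 genes kept, the median of the mean levels was 114 RPKM, against 12.0 RPKM over all genes kept.

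**Figure D1:**
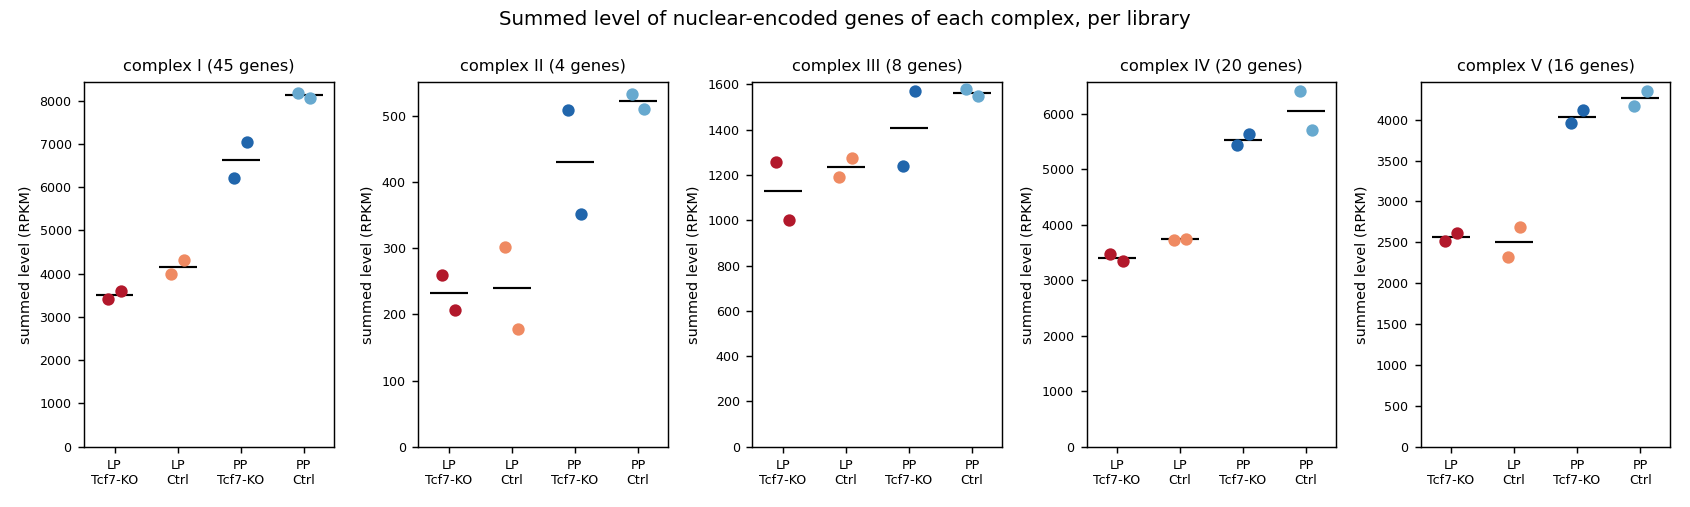
Summed level (RPKM) of the nuclear-encoded genes of complexes I to V in each of the 8 libraries, LP left of PP and Tcf7-KO left of Ctrl; points are libraries and bars are means of 2. For complex I the sums were 3406 to 4320 RPKM in LP and 6217 to 8181 RPKM in PP, and for complex III the groups lay closest together.

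Among the complexes, complex I and complex IV had the largest sums. The highest single levels were those of Cox4i1 (mean over the 8 libraries 867 RPKM), Cox8a (762 RPKM), Cox6a1 (755 RPKM) and Atp5e (718 RPKM). Cox4i1, Cox6a1 and Cox8a are the ubiquitous forms of structural subunits of cytochrome c oxidase, and Atp5e is the epsilon subunit in the central stalk of the ATP synthase. In complex I the highest were the accessory subunits Ndufa3 (581 RPKM), Ndufa2 (486 RPKM) and Ndufb7 (407 RPKM). Complex III was led by Uqcr10 (299.98 RPKM), Uqcrh (292 RPKM) and Uqcrq (285 RPKM), and complex II by Sdha (137 RPKM), the flavoprotein that oxidises succinate.

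Subunits that stand in equal number in a complex had unequal RNA levels. Sdhd, a membrane anchor of complex II, had a mean of 2.82 RPKM, against 92.8 RPKM for Sdhc, the other membrane anchor, and 124 RPKM for the iron-sulfur subunit Sdhb. Ndufb4 had a mean of 5.54 RPKM within complex I. Uqcr11, a small subunit of complex III, was listed at 0 in all 8 libraries. Its exons overlap no other annotated gene and 6.27% of its stretches of 50 bases occur in another gene, a processed pseudogene. A value of 0 in every library can be a failed estimate and is given as a listing only.

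Tissue-restricted paralogues of complex IV subunits were mostly at 0. Cox4i2, Cox6a2, Cox6b2, Cox7b2, Cox8b and Cox8c, forms known from lung, muscle or testis, were at 0 in all 8 libraries except for Cox4i2, which had 0.0684 RPKM in 1 PP library labelled Tcf7-KO. These 6 genes and Uqcr11 are the 7 that were not kept. Ndufa4l2, the paralogue of Ndufa4 known as a hypoxia-induced gene, had 0.963 to 4.82 RPKM, against 128 to 534 RPKM for Ndufa4. Cox7a1, the heart and muscle form of subunit VIIa, reached 15.8 RPKM in LP Ctrl replicate 2 and 3.87 RPKM in PP Ctrl replicate 2 and stayed under 0.1 RPKM in the other 6 libraries. Its ubiquitous paralogue Cox7a2 had 18.7 and 19.4 RPKM in these 2 libraries and a mean of 20.4 RPKM over all 8. Of the 3 genes for the c subunit of the rotor ring, Atp5g3 had a mean of 226 RPKM, Atp5g1 24.7 RPKM and Atp5g2 1.74 RPKM, and 38.3% of the 50-base stretches of Atp5g2 occur in other annotated genes.

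LP and PP cells were compared over all 8 libraries, with genotype as a second term, to ask how the genes differ between the tissues. All 6 genes that passed were lower in LP: the complex I subunits Ndufa3 and Ndufa13, the complex IV subunits Cox6b1 and Cox8a, and the ATP synthase subunits Atp5e and Atp5k. With limma's test at an adjusted p under 0.05, 6 of 86 were lower and 0 were higher, while 2.03% of the 10541 genes tested were lower and 2.3% were higher. At an unadjusted p under 0.05 the count was 30 of 86, against 19.4% of all genes. The LP minus PP difference was negative for 75 of the 86 genes. Its median was -0.71 on the log2(RPKM + 1) scale, against -0.10 over all genes, most of which are longer and lower. At a mean of at least 100 RPKM the medians were -0.75 over 46 members and -0.26 over 960 genes. In bulk RNA, fewer cells of a type and less RNA per cell cannot be told apart, and this fit treats LP and PP libraries as coming from different mice, which the labels do not state.

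The promoters of these 6 genes are shown because they carry the differences that passed. Each stretch runs from 250 bases before to 30 bases after the RefSeq start site (GRCm38.p6), 5′ to 3′ on the gene's strand, with matches to 3 motifs in capitals: the YY1 motif AAGATGGC, the ETS motif CCGGAAG and the NRF1 motif (GCGCA and GCGC with 1 base of any kind between them), each searched on both strands. The stretches are chr7:3617123-3617402 (plus strand) for Ndufa3, chr7:30626085-30626364 (minus) for Cox6b1, chr2:174464072-174464351 (minus) for Atp5e, chr19:7217587-7217866 (minus) for Cox8a, chr8:69901991-69902270 (minus) for Ndufa13 and chr5:108434370-108434649 (minus) for Atp5k.
Ndufa3: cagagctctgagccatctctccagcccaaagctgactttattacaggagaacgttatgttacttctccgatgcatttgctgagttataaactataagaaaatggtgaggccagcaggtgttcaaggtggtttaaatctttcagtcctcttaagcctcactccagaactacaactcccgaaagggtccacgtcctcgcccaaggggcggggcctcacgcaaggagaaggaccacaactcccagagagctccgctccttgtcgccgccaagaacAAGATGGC
Cox6b1: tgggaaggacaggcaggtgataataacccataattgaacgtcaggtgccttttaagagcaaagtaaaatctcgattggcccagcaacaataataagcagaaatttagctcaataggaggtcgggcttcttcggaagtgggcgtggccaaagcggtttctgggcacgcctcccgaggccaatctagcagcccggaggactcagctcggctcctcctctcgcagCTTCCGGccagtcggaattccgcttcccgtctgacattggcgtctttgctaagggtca
Atp5e: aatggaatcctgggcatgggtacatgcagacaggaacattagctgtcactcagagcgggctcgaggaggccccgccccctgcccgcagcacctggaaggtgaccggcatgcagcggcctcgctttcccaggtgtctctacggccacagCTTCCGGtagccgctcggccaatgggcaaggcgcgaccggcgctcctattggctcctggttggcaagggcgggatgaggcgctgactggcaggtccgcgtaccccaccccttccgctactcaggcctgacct
Cox8a: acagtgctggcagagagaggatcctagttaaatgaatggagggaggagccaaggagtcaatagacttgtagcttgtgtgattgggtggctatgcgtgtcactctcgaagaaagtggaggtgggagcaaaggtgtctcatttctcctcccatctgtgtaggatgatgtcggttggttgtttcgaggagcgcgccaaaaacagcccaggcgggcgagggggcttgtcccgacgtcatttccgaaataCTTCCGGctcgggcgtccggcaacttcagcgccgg
Ndufa13: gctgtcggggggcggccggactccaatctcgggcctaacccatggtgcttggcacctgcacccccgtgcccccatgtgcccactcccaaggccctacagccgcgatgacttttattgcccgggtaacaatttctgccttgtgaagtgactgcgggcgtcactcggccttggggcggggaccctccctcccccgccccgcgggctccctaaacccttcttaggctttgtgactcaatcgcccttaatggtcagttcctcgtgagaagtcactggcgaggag
Atp5k: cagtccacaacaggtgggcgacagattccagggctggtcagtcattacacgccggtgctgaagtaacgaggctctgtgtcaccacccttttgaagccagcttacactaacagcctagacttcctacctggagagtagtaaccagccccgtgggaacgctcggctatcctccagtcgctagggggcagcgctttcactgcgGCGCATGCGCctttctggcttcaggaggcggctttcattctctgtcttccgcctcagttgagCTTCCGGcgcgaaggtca

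A match to the YY1 motif lies at position 23 after the start site of Ndufa3. ETS matches lie at position -28 of Cox6b1, -102 of Atp5e, -5 of Cox8a and 13 of Atp5k, and an NRF1 match lies at position -50 of Atp5k. Ndufa13 has none of the 3 in this stretch. Its stretch belongs to a start site inside the annotated gene, whose 5′ end lies further out, at 69902558. The sequence before that outer end was not searched. NRF1, GABPA of the ETS family and YY1 are factors known to bind promoters of nuclear-encoded mitochondrial genes. Over the 300 bases around the start site (50 bases after it included), the NRF1 motif was present in 24.7% of the 77 members with a promoter in the table, against 12.6% of the genes kept and 5.19% of all promoters. The YY1 motif was present in 15.6%, against 6.03% of the genes kept and 3.19% of all. For the ETS motif the shares were 23.4%, 22.8% and 9.93%. The letters CTTTGAA, bound by the TCF/LEF factors to which the product of Tcf7 belongs, were present in 2 of the 77 members (2.6%), against 4.16% of the genes kept and 5.93% of all promoters. A match is a stretch of letters and not a measured binding site.

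Ndufa3 (chromosome 7, 3617347 to 3620165 in GRCm38.p6, the build of all positions here), a small membrane subunit of complex I, had 173 and 263 RPKM in LP labelled Tcf7-KO, 279 and 375 RPKM in LP Ctrl, 590.2 and 883 RPKM in PP labelled Tcf7-KO and 1101 and 981 RPKM in PP Ctrl. All 4 LP libraries were below all 4 PP libraries, and in each tissue the 2 libraries labelled Tcf7-KO were below the 2 Ctrl libraries. The LP minus PP difference was -1.72 ± 0.23 (SE, limma adjusted p = 0.0023). Ndufa13 (chromosome 8, 69894163 to 69902558), a subunit also known as GRIM-19, had 208 and 176 RPKM in LP labelled Tcf7-KO, 96.8 and 171 RPKM in LP Ctrl, 294 and 510.2 RPKM in PP labelled Tcf7-KO and 446 and 371 RPKM in PP Ctrl. The tissues did not overlap, and LP Ctrl held the lowest library. The difference was -1.34 ± 0.30 (limma adjusted p = 0.0354). Its exons overlap those of Tssk6 on the opposite strand over part of their length, 28.5% of its 50-base stretches occur in Tssk6 or a pseudogene, and reads of the 2 genes cannot be told apart without strand.

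Cox6b1 (chromosome 7, 30616971 to 30626114), a subunit on the outer face of cytochrome c oxidase, had 400.0 and 382 RPKM in LP labelled Tcf7-KO, 552 and 435 RPKM in LP Ctrl, 774 and 824 RPKM in PP labelled Tcf7-KO and 973 and 1007 RPKM in PP Ctrl. The tissues did not overlap, and the Ctrl libraries were the higher ones in each tissue. The difference was -1.02 ± 0.17 (limma adjusted p = 0.0069). Cox8a (chromosome 19, 7215158 to 7217616), a small membrane subunit of the same complex, had 452 and 535 RPKM in LP labelled Tcf7-KO, 535 and 624 RPKM in LP Ctrl, 763 and 707 RPKM in PP labelled Tcf7-KO and 1255 and 1227 RPKM in PP Ctrl. PP Ctrl stood apart from the other 6 libraries, and PP labelled Tcf7-KO lay between it and LP. The difference was -0.84 ± 0.18 (limma adjusted p = 0.0270).

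Atp5e (chromosome 2, 174461075 to 174464101) had 508 and 290.0 RPKM in LP labelled Tcf7-KO, 528 and 499 RPKM in LP Ctrl, 740.0 and 951 RPKM in PP labelled Tcf7-KO and 1212 and 1016 RPKM in PP Ctrl. The tissues did not overlap. The difference was -1.12 ± 0.21 (limma adjusted p = 0.0148). Atp5k (chromosome 5, 108433246 to 108434399), the e subunit of the membrane part, known for holding ATP synthase dimers together, had 156 and 180.3 RPKM in LP labelled Tcf7-KO, 73.0 and 130.2 RPKM in LP Ctrl, 239 and 563 RPKM in PP labelled Tcf7-KO and 384 and 388 RPKM in PP Ctrl. Here too the tissues did not overlap, while the PP libraries labelled Tcf7-KO lay far apart from each other. The difference was -1.55 ± 0.35 (limma adjusted p = 0.0355).

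**Figure D2:**
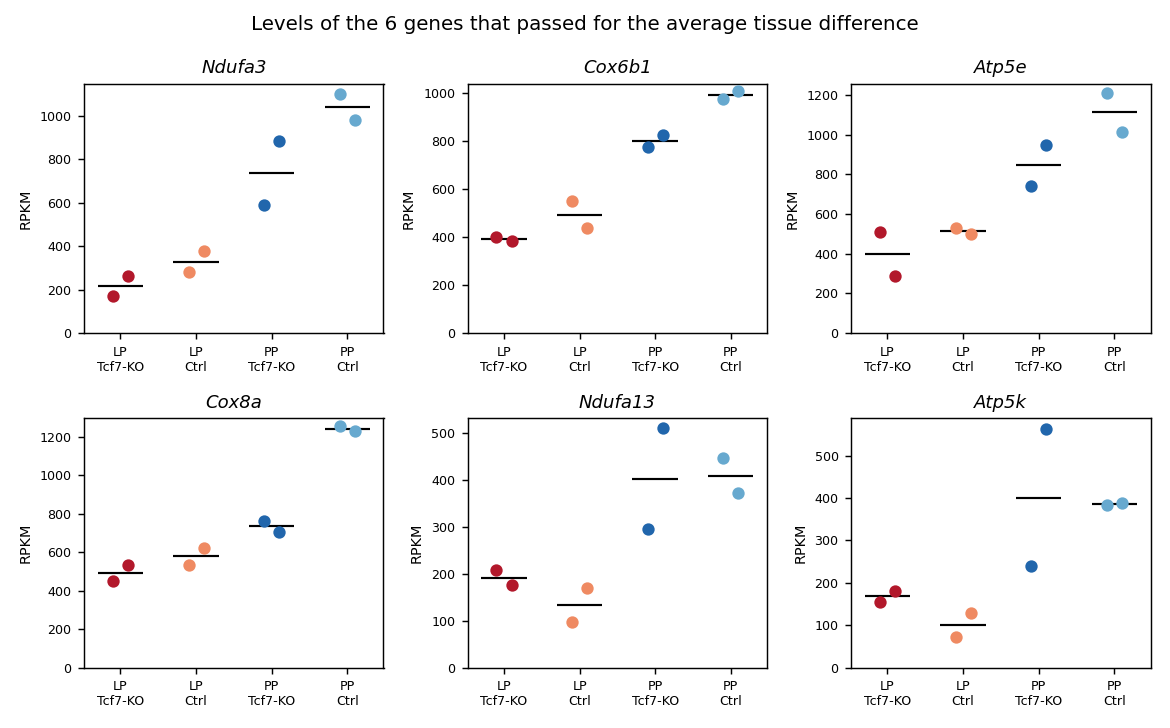
Level (RPKM) of the 6 genes that passed for LP against PP, in each of the 8 libraries; points are libraries, bars are means of 2, LP stands left of PP and Tcf7-KO left of Ctrl. In each panel every LP point is below every PP point.

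The 6 calls did not rest equally firmly on the libraries. Ndufa3 and Cox6b1 passed whichever of the 8 libraries was left out. Atp5e did not pass without PP labelled Tcf7-KO replicate 2 or without either LP Ctrl replicate. Cox8a passed only without LP labelled Tcf7-KO replicate 2 or PP labelled Tcf7-KO replicate 2, and Ndufa13 and Atp5k only without PP labelled Tcf7-KO replicate 1. The count was 3 without LP labelled Tcf7-KO replicate 1, LP Ctrl replicate 1 or PP labelled Tcf7-KO replicate 2, 2 without LP Ctrl replicate 2, and 8 without PP Ctrl replicate 1, when Uqcrfs1 was higher in LP. After median-of-ratios rescaling it was 1 (Ndufa3) and with no filter on low values it was 2 (Cox6b1 and Ndufa3). All 6 had a negative difference under all 15 alternatives.

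The levels moved beside the B and plasma cell, T cell, and stromal and endothelial markers given above. Immunoglobulin genes made up 10.3% to 17.1% of a library's summed RPKM in LP and 2.81% to 6.38% in PP, and without Igkc the B and plasma cell markers summed to 1386 to 2190 RPKM in LP and 864 to 982 RPKM in PP. With immunoglobulin and mitochondrially encoded genes taken out of the total, the 93 genes were 2.35% to 2.70% of the rest in LP and 3.69% to 4.08% in PP, the same 6 genes passed, and 71 of 86 had a negative difference, with a median of -0.60. The part of B and plasma cell RNA within the level of the respiratory genes themselves was not tested, nor was that of T cell, stromal or endothelial RNA, whose marker sums did not overlap between LP and PP. That of epithelial or myeloid RNA, whose marker sums overlapped, was not tested either.

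Differences without overlap went beyond the 6 genes. For 26 of the 86 genes all 4 LP libraries were below all 4 PP libraries, and for 0 all were above, against 7.05% and 6.54% of all genes. Of the 26, 14 belong to complex I, 1 to complex II (Sdhd), 1 to complex III (Uqcr10), 5 to complex IV (Cox5a, Cox6b1, Cox6c, Cox7b, Cox8a) and 5 to complex V (Atp5c1, Atp5e, Atp5j, Atp5j2, Atp5k). Such counts differed with level. Of the 46 members with a mean of at least 100 RPKM, 43 had a negative difference and 19 had all LP libraries below all PP libraries, while of the 960 genes at this level 58.4% were negative and 21.8% were below.

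**Figure D3:**
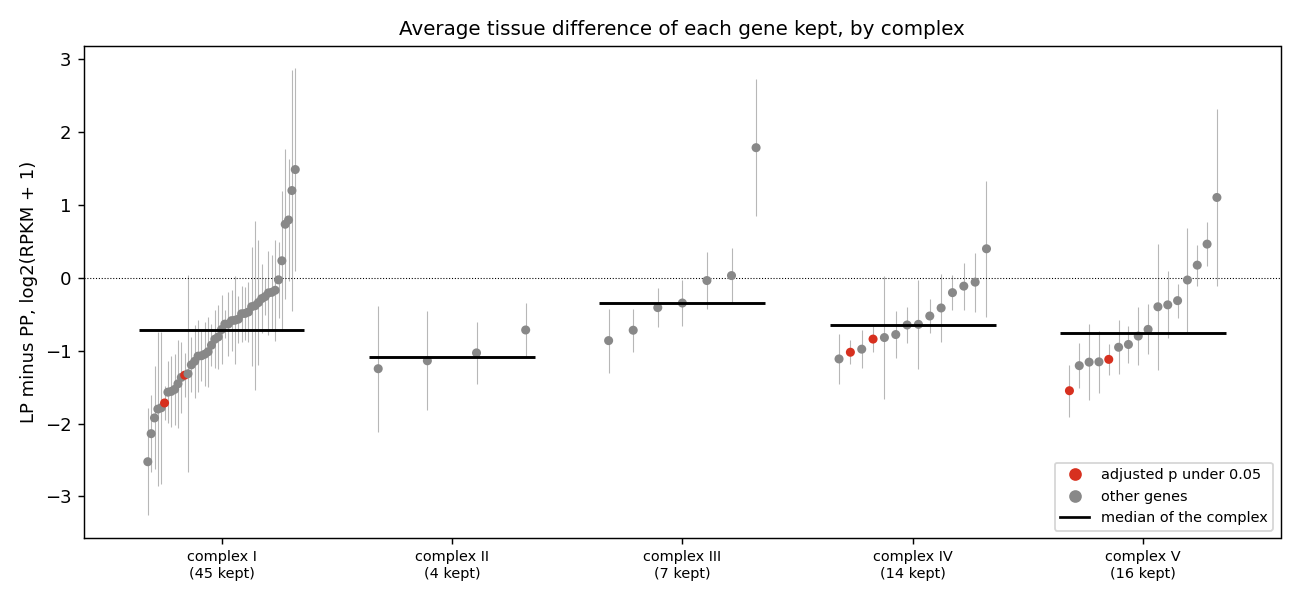
LP minus PP difference (log2(RPKM + 1), vertical axis) of the 86 genes kept, by complex and ordered by value; bars are ± 1 SE of the limma fit, black lines are medians of a complex, and red marks the 6 genes that passed. In each of the 5 complexes most points are below 0, and the complex III median (-0.35) is nearest to 0.

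In complex I, 40 of 45 differences were negative (median -0.71). All 7 core subunits, which carry the flavin and the iron-sulfur clusters, were negative (median -0.81), and none passed. Ndufv2, a core subunit of the NADH-binding arm, had 21.6 and 32.9 RPKM in LP labelled Tcf7-KO, 11.5 and 30.7 RPKM in LP Ctrl, 57.1 and 164 RPKM in PP labelled Tcf7-KO and 119 and 98.0 RPKM in PP Ctrl. The tissues did not overlap, but the difference of -2.14 ± 0.53 missed the threshold (limma adjusted p = 0.051). Among the others, Ndufs3 had -1.37 ± 0.49, Ndufs8 -0.81 ± 0.43, Ndufs7 -0.49 ± 0.39, Ndufs1 -0.34 ± 0.86 and Ndufv1 -0.20 ± 0.52, and of these only Ndufs3 had no overlap between the tissues. The 29 accessory subunits had a median of -0.71, with 27 negative and 2 passing.

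The 4 subunits of succinate dehydrogenase (complex II), which also acts in the citric acid cycle, all had negative differences and none passed. Sdha had 71.1 and 61.2 RPKM in LP labelled Tcf7-KO, 104 and 102 RPKM in LP Ctrl, 173 and 161 RPKM in PP labelled Tcf7-KO and 89.9 and 331 RPKM in PP Ctrl. A single low PP Ctrl library made the tissues overlap (-1.03 ± 0.42). Sdhb had -0.72 ± 0.37, Sdhc -1.14 ± 0.68 and Sdhd -1.25 ± 0.86. Complex III differed least, with a ratio of summed levels of 0.796 (LP over PP), against 0.519 for complex I, 0.497 for complex II, 0.617 for complex IV and 0.610 for complex V. Uqcrh (0.03 ± 0.38) and Uqcrb (-0.04 ± 0.39) were near 0, Uqcrc1 and Uqcrc2, the large core proteins, had -0.35 ± 0.32 and -0.86 ± 0.44, and Uqcrfs1, the Rieske iron-sulfur protein that hands electrons to cytochrome c1, had 1.78 ± 0.94.

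Uqcrfs1 had 129 and 104 RPKM in LP labelled Tcf7-KO, 125 and 84.0 RPKM in LP Ctrl, 42.2 and 29.2 RPKM in PP labelled Tcf7-KO and 186 and 3.26 RPKM in PP Ctrl. The 4 LP libraries lay close together, while the PP Ctrl libraries were the highest and the lowest of all 8. It passed only when PP Ctrl replicate 1 was left out. In complex IV, 13 of 14 differences were negative (median -0.64). Cox6c had 416 and 258 RPKM in LP labelled Tcf7-KO, 318 and 308 RPKM in LP Ctrl, 985 and 774 RPKM in PP labelled Tcf7-KO and 499.9 and 419 RPKM in PP Ctrl. Its tissues did not overlap, and the PP libraries labelled Tcf7-KO were the highest (-0.98 ± 0.26, limma adjusted p = 0.061).

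Members of complex IV around the catalytic core varied. Cox5a had -0.65 ± 0.24 without overlap between the tissues, Cox4i1 had -0.52 ± 0.24 and Cox5b had -0.11 ± 0.32. Cox6a1, at 476 to 1014 RPKM, had -0.20 ± 0.24. In complex V, 13 of 16 were negative (median -0.75). The stator and membrane subunits had all 7 differences below 0 (median -0.91), with Atp5j at -1.21 ± 0.31 and Atp5j2 at -0.91 ± 0.25, both without overlap between the tissues. The catalytic head was less uniform. Atp5b, the catalytic beta subunit, had 0.17 ± 0.28, its partner Atp5a1 had -0.31 ± 0.23, and Atp5d, the delta subunit of the central stalk, had 0.46 ± 0.30, while Atp5c1, the gamma subunit of the same stalk, had -0.95 ± 0.37. None of the 4 passed.

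The tissue comparison was also made within each genotype, with the same fit of 4 group means. These comparisons share libraries with the average over genotypes and are not independent of it. Within the libraries labelled Tcf7-KO, 1 of 86 genes, Ndufa3, was lower in LP (-1.76 ± 0.32, limma adjusted p = 0.0469), 0 were higher, and 19 had an unadjusted p under 0.05, against 1.07% lower, 0.93% higher and 14.7% over all genes. Within Ctrl, 1 gene, Cox8a, was lower in LP (-1.10 ± 0.19, limma adjusted p = 0.0400), 0 were higher, and 20 had an unadjusted p under 0.05, against 0.787% lower, 1.34% higher and 17% over all genes. The member medians were -0.75 within Tcf7-KO and -0.65 within Ctrl, beside medians over all genes of -0.29 and 0.09. Relative to all genes these were -0.46 and -0.74, against -0.30 and -0.95 with libraries rescaled by the median of ratios, where the medians over all genes were 0.02 and -0.03. Both LP libraries were below both PP libraries for 51 of 86 members within Tcf7-KO and for 40 of 86 within Ctrl, against 28.1% and 21.4% of all genes. Cox8a did not pass with only the 2 groups fitted or when any PP library or either LP Ctrl library was left out. Ndufa3 did not pass with only the 2 groups fitted or when any 1 of the 8 libraries was left out.

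The libraries labelled Tcf7-KO were then compared with Ctrl within each tissue, to ask how the genes differ with the genotype label. No member passed in PP, where 9 of 86 had an unadjusted p under 0.05, nor in LP, where 3 of 86 did. Over all genes limma called 0.36% in PP and 0.0285% in LP, and 11.4% and 5.27% had an unadjusted p under 0.05. The median difference over members was -0.12 in PP and -0.21 in LP, beside 0.16 and -0.06 over all genes. Without PP labelled Tcf7-KO replicate 2 the PP median was -0.01, with 44 of 86 negative. Both PP libraries labelled Tcf7-KO were below both Ctrl libraries for 22 members and above for 14, against 14.8% and 22.7% of all genes. In LP the counts were 19 and 6, against 20.3% and 15.3%. The average genotype effect over both tissues also gave 0 calls, with 4 of 86 at an unadjusted p under 0.05 (limma; 0.00949% and 6.81% over all genes), and for 0 members were all 4 Tcf7-KO libraries below or above all 4 Ctrl libraries (1.24% and 1.66% of all genes). The standard error of a member's difference between 2 groups had a median of 0.60, which limits the size of difference that could pass.

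**Figure D4:**
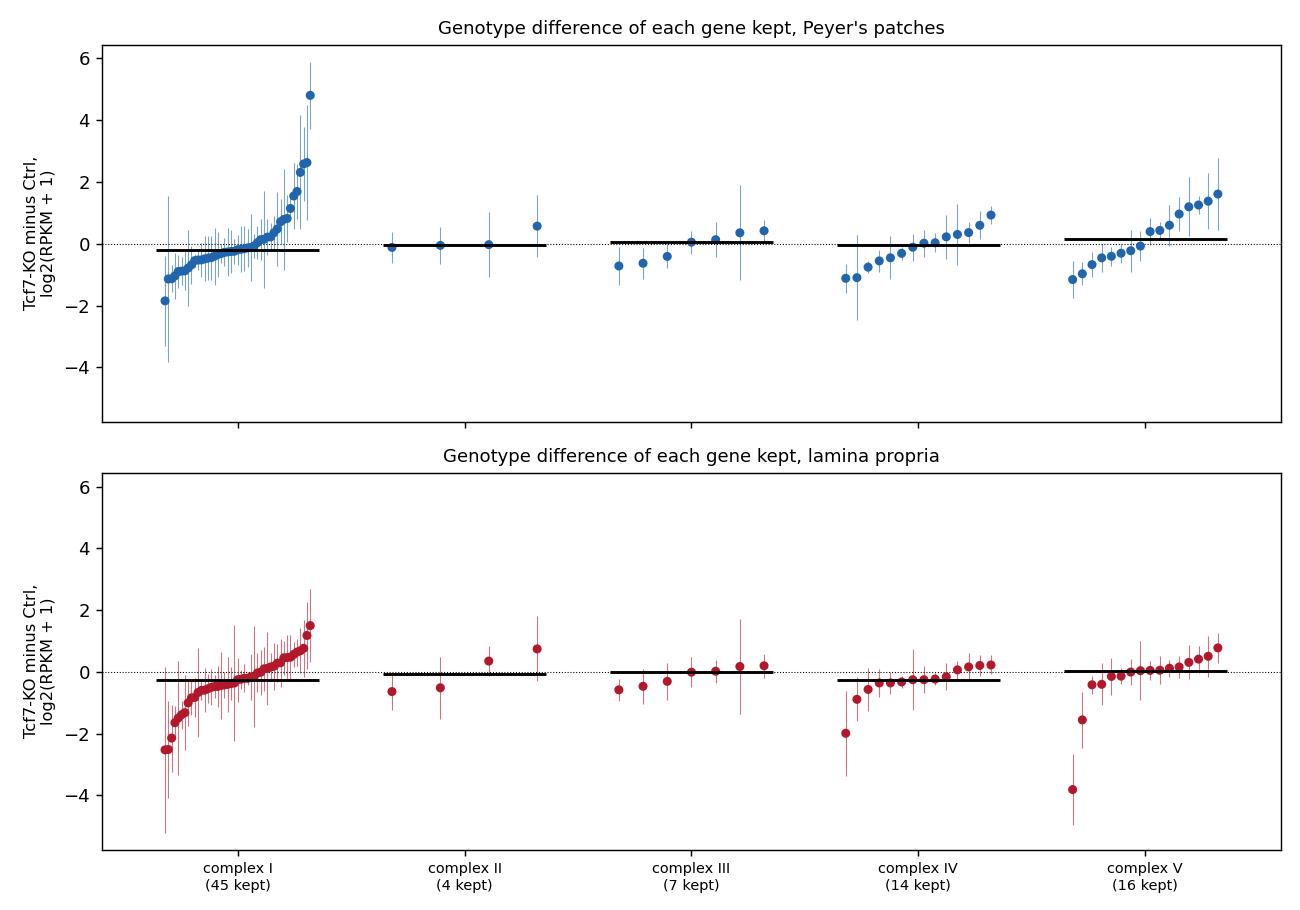
Tcf7-KO minus Ctrl difference (log2(RPKM + 1), vertical axis) of the 86 genes kept, by complex and ordered by value, in PP (top) and LP (bottom); bars are ± 1 SE of the limma fit and black lines are medians of a complex. Points scatter on both sides of 0 in each complex, with medians between -0.25 and 0.16 as deposited, and with the scaling the PP medians of complexes II, III, IV and V and the LP medians of complexes II and III change sign.

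The direction of the medians depends on the scaling. The share of mitochondrially encoded genes was 13.4% and 13.6% in PP labelled Tcf7-KO and 3.06% and 3.28% in PP Ctrl, and a larger share for some genes leaves less of the library for the rest. With immunoglobulin and mitochondrially encoded genes taken out of the total, the member median in PP was 0.01 and the medians of complexes II and IV turned to 0.09 and 0.08. After median-of-ratios rescaling it was -0.69, the medians of complexes III and V, 0.05 and 0.16 as deposited, turned to -0.53 and -0.42 so that all 5 were negative, and the median over all genes moved by more than 0.1, to -0.07. Relative to all genes the member median was -0.27 as deposited, -0.24 with those genes out of the total and -0.62 after median-of-ratios rescaling. In LP it was -0.15 as deposited, -0.15 and -0.06 with these scalings, and the LP medians of complexes II and III turned to 0.10 and 0.21 after median-of-ratios rescaling.

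Some members stood out by size within PP, although none passed. Atp5b had 535 and 642 RPKM in PP labelled Tcf7-KO and 204 and 293 RPKM in PP Ctrl. The groups did not overlap (1.26 ± 0.28, limma adjusted p = 0.134). In LP it had 508 and 389.7 RPKM in libraries labelled Tcf7-KO and 391 and 429.8 RPKM in Ctrl, which overlap. Cox8a was the member with the smallest p among those with a negative difference in PP (-0.76 ± 0.19, limma adjusted p = 0.176), from the values given above. Cox6c had 0.93 ± 0.29, Atp5h, a peripheral stalk subunit, had -0.97 ± 0.37, and Ndufb7 had -1.13 ± 0.44. In LP small p values belonged to Atp5s (-3.81 ± 1.16) and Ndufb5 (-1.65 ± 0.53) among negative differences and to Atp5k (0.78 ± 0.48), Ndufb8 (0.64 ± 0.44) and Ndufa13 (0.57 ± 0.40) among positive ones.

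Whether the genotype difference itself differed between the tissues was tested with the interaction (the difference in LP minus that in PP). No member passed, and 3 of 86 had an unadjusted p under 0.05 (limma; 0.0285% and 8.75% over all genes). The smallest p values were those of Atp5s (-5.42 ± 1.64), Ndufs7, the subunit with the last iron-sulfur cluster before ubiquinone (-1.62 ± 0.54), and Atp5b (-1.14 ± 0.40) among negative values and Atp5h (1.13 ± 0.52), Ndufb7 (1.29 ± 0.63) and Cox7a2l (1.28 ± 0.65) among positive ones. Cox7a2l is known as a factor that joins complexes III and IV into supercomplexes.

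A small set of members was on in some libraries and near 0 in others. For 9 of the 86, at least 1 library had 10 RPKM or more and at least 1 had under 1 RPKM, and 6 of these 9 are assembly factors of complex I (Ndufaf1, Ndufaf2, Ndufaf4, Ndufaf5, Ndufaf6, Ndufaf7), which build the enzyme without staying in it. The others were Ndufb3, Atp5s and Cox7a1. All of the 9 but Ndufaf2 and Ndufb3 had a mean below 10 RPKM. At that level the share over all genes was not taken, so the count is not set apart from low level. Ndufaf1 had 4.86 and 0.105 RPKM in LP labelled Tcf7-KO, 0.126 and 0.123 RPKM in LP Ctrl, 25.9 and 34.3 RPKM in PP labelled Tcf7-KO and 0.124 and 0.0776 RPKM in PP Ctrl. It was on in both PP libraries labelled Tcf7-KO and in 1 of the other 6, and the PP difference of 4.81 ± 1.09 did not pass (limma adjusted p = 0.139). Ndufaf2, which ranged most widely on the log2 scale, had 58.9 and 0.449 RPKM in LP labelled Tcf7-KO, 55.8 and 49.6 RPKM in LP Ctrl, 0.418 and 29.5 RPKM in PP labelled Tcf7-KO and 0.415 and 146.8 RPKM in PP Ctrl. Replicates of 3 of the 4 groups disagreed, and 64.1% of its 50-base stretches occur in other annotated genes.

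Atp5s, which RefSeq names Dmac2l, had 0.0321 and 0.0172 RPKM in LP labelled Tcf7-KO, 14.2 and 12.6 RPKM in LP Ctrl, 8.45 and 0.0335 RPKM in PP labelled Tcf7-KO and 0 and 0.0455 RPKM in PP Ctrl. Both LP Ctrl libraries were high and both LP libraries labelled Tcf7-KO were near 0. Ndufb3, an accessory subunit, had 0.759 RPKM in LP labelled Tcf7-KO replicate 1 and 39.8 to 109 RPKM in the other 7 libraries. Such gaps are common at low levels. Of the 960 genes kept with a mean of at least 100 RPKM, 4.79% had a library under 1 RPKM, against 0 of 46 members, and of the 922 between 50 and 100 RPKM 23.6% did, against 1 of 19 members. Between 10 and 50 RPKM the counts were 68.6% of 3908 genes and 1 of 10 members. At the other end, Ndufa1 (161 to 279 RPKM), Atp5a1 (258 to 460.4 RPKM) and Uqcrq (181 to 365 RPKM) had the narrowest ranges.

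The subunits encoded in mitochondrial DNA, which are assembled with the nuclear-encoded ones, were set beside them. Summed over complexes I, III, IV and V, the 13 mitochondrially encoded subunits had 1.79 and 1.51 times the level of the 78 nuclear-encoded subunits in LP labelled Tcf7-KO, 1.14 and 1.11 times in LP Ctrl, 3.55 and 3.38 times in PP labelled Tcf7-KO and 0.728 and 0.798 times in PP Ctrl. Each group stood apart from the others. The order was the same in complexes I, IV and V, and in complex III the PP Ctrl libraries (1.97 and 2.17) and the LP Ctrl libraries (2.08 and 2.14) overlapped. A ratio within a library does not depend on the scaling between libraries.

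**Figure D5:**
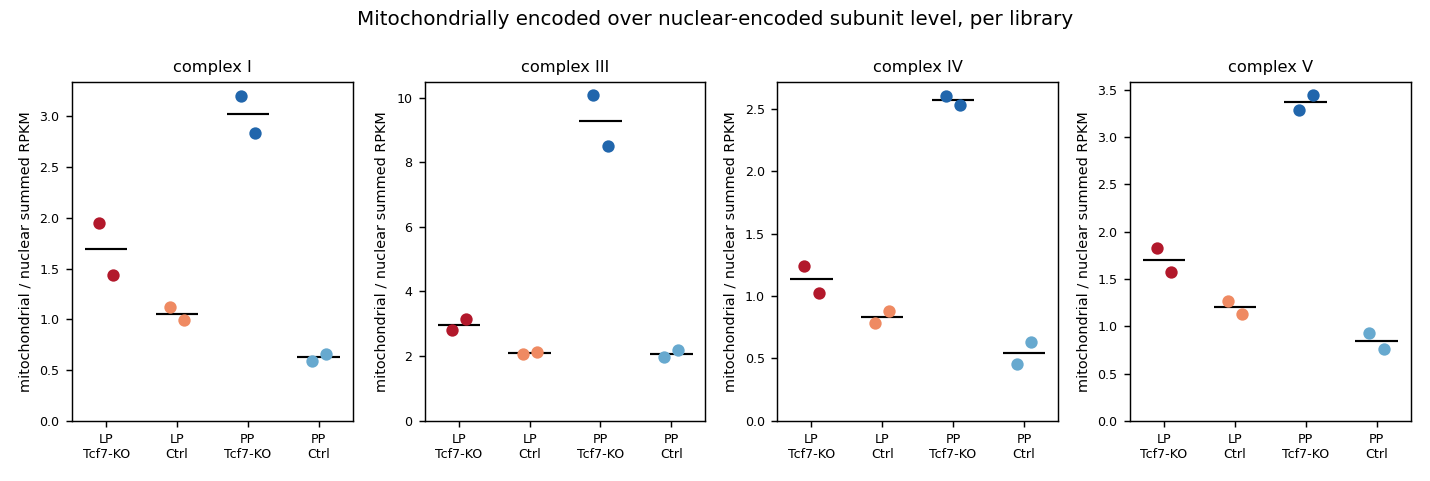
Summed RPKM of mitochondrially encoded subunits divided by that of nuclear-encoded subunits (vertical axis) of complexes I, III, IV and V, per library; points are libraries, bars are means of 2, LP stands left of PP and Tcf7-KO left of Ctrl. PP labelled Tcf7-KO is highest in each panel, at 8.49 and 10.1 in complex III.

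In PP, 9 of the 13 mitochondrially encoded genes were higher in libraries labelled Tcf7-KO (limma; 0.266% of all genes were higher), with a median difference of 1.99, while the nuclear-encoded members had 0 calls and a median of -0.12 from the same libraries. The count was 0 without either PP library labelled Tcf7-KO or with only the 2 groups fitted, 4 with no filter, 5 after median-of-ratios rescaling, and 6 without either LP Ctrl library or PP Ctrl replicate 1. All 13 had an unadjusted p under 0.05 in each of these fits. In LP 0 of 13 passed, with 4 at an unadjusted p under 0.05 (limma) and a median of 0.36. Among the PP libraries labelled Tcf7-KO, mt-Cytb, the only complex III subunit of mitochondrial DNA, had 12481 and 13350 RPKM, against 3112 and 3365 RPKM in PP Ctrl. Within the Tcf7-KO label 12 of 13 were lower in LP than in PP, against 1.07% of all genes. That count was 4 without PP labelled Tcf7-KO replicate 1, 3 without replicate 2, 6 without LP labelled Tcf7-KO replicate 2, either LP Ctrl library or the filter, and 0 with only the 2 groups fitted. It was 8 after median-of-ratios rescaling. Within Ctrl 0 of 13 passed, with 1 at an unadjusted p under 0.05 (limma).

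Other genes of the pathway were taken from lists of assembly factors, carriers with ubiquinone synthesis enzymes, citric acid cycle enzymes and regulators. Of 30 assembly factors of complexes II to V that were kept, 4 were lower in LP on average and 0 were higher (limma), against 2.03% and 2.3% of all genes. The difference was negative for 25 of 30, with a median of -1.37, against -0.10 over all genes, and 11 had an unadjusted p under 0.05, against 19.4% of all genes. Coa3 and Coa6 passed under every alternative run. The count was 2 after median-of-ratios rescaling and without either LP or either PP library labelled Tcf7-KO or PP Ctrl replicate 2, and Uqcc3 and Cox14 did not pass there. Coa3, which supports translation of the COX1 subunit, had 21.7 and 20.7 RPKM in LP labelled Tcf7-KO, 16.6 and 22.1 RPKM in LP Ctrl, 318 and 192 RPKM in PP labelled Tcf7-KO and 106 and 278 RPKM in PP Ctrl. The tissues were far apart (-3.29 ± 0.44, limma adjusted p = 0.0023). Coa6, Uqcc3 and Cox14 were lower as well, with differences of -5.16 ± 0.83, -2.27 ± 0.52 and -1.54 ± 0.38 in that order. Coa6 had 0.498 and 0.767 RPKM in LP labelled Tcf7-KO and 13.4 and 0.602 RPKM in LP Ctrl. Its levels were 107 and 52.1 RPKM in PP labelled Tcf7-KO and 85.8 and 201 RPKM in PP Ctrl. In LP it was thus near 0 except in LP Ctrl replicate 1. A further list held 18 genes outside the symbol rule, most of them enzymes of ubiquinone synthesis (Coq and Pdss genes). The others included Cycs, Cyc1, Atpif1, Etfa, Etfb and Etfdh. Of the 18, 1, Atp5mpl, was lower (-1.87 ± 0.31). The median of this mixed list was 0.50, with 7 differences negative and 11 positive. Of 13 citric acid cycle enzymes, 1, Suclg1, was lower (-1.83 ± 0.43, median -0.68), and with single libraries left out it passed only without LP or PP labelled Tcf7-KO replicate 1. None of 6 further complex I assembly factors (1 at an unadjusted p under 0.05, limma) and none of 11 regulators (2 at an unadjusted p under 0.05) passed. The 6 assembly factors had a median of -1.05, with 5 negative and 1 positive. The 11 regulators had a median of 0.72, with 4 negative and 7 positive.

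Length and sequence set limits on these values. The members' exons had a median combined length of 1772.5 bases, against 4390.5 bases over all genes kept. The 6 genes that passed for tissue had a median of 865 bases. Over all genes the median LP minus PP difference was -0.29 under 1000 bases, -0.43 from 1000 and -0.24 from 2000. From 4000 bases it was 0.0015. Over members the medians were -0.93, -0.61, -0.84 and -0.40 in that order. Across the 86 members the LP minus PP difference had a Pearson's r of -0.25 and a Spearman's rho of -0.15 with log2 mean level, and 0.11 and 0.15 with log2 exon length, given as a description across genes of the same libraries. Members that share the largest part of their 50-base stretches with other annotated genes include Ndufaf2, Atp5o (41.6%), Atp5g2, Ndufb6 (31.6%), Ndufa13 (28.5%), Uqcrb (25.5%), Cox7c (22.1%) and Ndufs5 (21.7%), and their levels are uncertain. Part of the Atp5o share is with a second annotated entry of the same name. Of the genes that passed, Ndufa3, Cox6b1, Atp5e and Cox8a share 0% and Atp5k shares 0.603%.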

How the data were processed

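Sorted LTi cells gave 8 RNA libraries, which the labels place in 4 groups of 2. Per the labels' protocols, Smart-seq2 libraries were prepared from total RNA isolated with a miRNeasy Micro kit. Per the submitters' processing notes, featureCounts of Subread was used with the mm10 genome; versions, aligner, annotation and strand setting are not stated. The authors deposited log2(RPKM + 1) values per gene, with 0.0001 written for 0. The base was checked on genes under 300 bases long: 95.45% of 66 low values were whole multiples of 1 read (within 0.1) after undoing log2, against 35.48% of 62 for a natural logarithm. All columns carry one lane label in the file headers. The table gives no counts. From 677 rarely read genes, in which the size of a single read shows, depth was put at 31.8 to 37.4 M reads a library (quartiles over genes 23.7 and 43.5 M). Amplified reads carry no molecular identifiers, so this depth counts reads, not molecules.

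Of 27179 gene identifiers, 25275 matched RefSeq's gene table for GRCm38.p6 (the mm10 assembly), and 847 had no symbol in the file; all 93 members matched. The 10541 genes that reached 1 RPKM in 2 or more libraries were fitted as log2(RPKM + 1), pseudocount 1, with limma 3.58.1 in R 4.3.3 (lmFit, eBayes with trend). A fit of 4 group means gave the comparisons within a tissue or genotype and the interaction, and an additive fit gave average effects. Tests were two-sided. P-values were adjusted over the 10541 genes by the Benjamini-Hochberg method, and a gene passed below 0.05. Errors are standard errors of the fit, and differences on this scale understate changes of low genes. The fits were run on simulated data only as a check of the code, and its recovery of small differences is not reported.

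Members and lists were chosen with earlier results of these data known. Genes named are those that passed, the 3 smallest p per direction and comparison, the 3 highest per complex, paralogue groups, catalytic or core subunits, the widest and narrowest ranges, those not kept, and list genes that passed; others were named after their values were seen. Alternatives were pseudocounts of 0.1 and 5, no filter or a filter on the mean, 2 other scalings, a replicate block, only the 2 groups compared, each library left out, and members with little shared sequence. Shared sequence was counted as 50-base stretches of a member's GENCODE exons found in another annotated gene. Promoters are RefSeq's, 250 bases before to 50 after the start site; 77 members had one. Some items withheld for evaluation are not reported here.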

Additional observations from a re-analysis of the deposited data

Results flagged for a closer look

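The interaction of mt-Cytb, the cytochrome b subunit encoded in mitochondrial DNA and no member of the nuclear-encoded set, passed limma's test for a Tcf7-KO minus Ctrl difference that differs between the 2 tissues. It had 3508 and 3150 RPKM in LP labelled Tcf7-KO, 2473 and 2728 RPKM in LP Ctrl, 12481 and 13350 RPKM in PP labelled Tcf7-KO and 3112 and 3365 RPKM in PP Ctrl. The Tcf7-KO minus Ctrl difference in LP minus that in PP was -1.64 ± 0.15 on the log2(RPKM + 1) scale (SE, limma adjusted p = 0.0388). All 13 mitochondrially encoded subunits had a negative interaction, and mt-Cytb was the single one to pass. The value stayed negative under every alternative run. It did not pass after median-of-ratios rescaling (-0.84 ± 0.20, limma adjusted p = 0.291), with the replicate block (limma adjusted p = 0.106) or with no filter (limma adjusted p = 0.255). Of the 8 libraries, it passed only when LP labelled Tcf7-KO replicate 1 was the one left out (limma adjusted p = 0.0468), and the others gave limma adjusted p of 0.114 to 0.349. Its nuclear-encoded partners in complex III had 0 of 7 passing in any comparison (limma), with an interaction median of -0.03 as deposited and 0.77 after median-of-ratios rescaling. The share of the library taken by mitochondrially encoded genes moves with this result. With immunoglobulin and mitochondrially encoded genes taken out of the total, the mt-Cytb interaction was -1.77 ± 0.16 (limma adjusted p = 0.0294). The part of this share in the result was not tested.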

How the results depend on the processing

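Replicate numbers showed no pairing of the samples: deviations of same-numbered libraries correlated at -0.0214 to 0.0103 over 10541 genes. With replicates this far apart, such values cannot tell whether libraries came from the same mice. With a replicate block, members called were 6 for average tissue, 0 for tissue within Tcf7-KO, 0 within Ctrl and 0 for genotype. Called members for tissue within Ctrl were 2 with a pseudocount of 0.1, 3 after median-of-ratios rescaling, and 0 with no filter, with immunoglobulin and mitochondrial genes out of the total, or with only the 2 groups fitted. For tissue within Tcf7-KO they were 0 with a pseudocount of 0.1, no filter, median-of-ratios rescaling or only the 2 groups. For average tissue they were 2 with no filter and 1 after median-of-ratios rescaling, and with single libraries left out 2 to 8, against 0 to 1 within Ctrl and 0 to 0 within Tcf7-KO. Median-of-ratios rescaling moved the member medians to -0.691 (genotype in PP), -0.00224 (genotype in LP), -0.976 (tissue within Ctrl), -0.288 (tissue within Tcf7-KO), 0.669 (interaction) and -0.346 (average genotype). The total without immunoglobulin and mitochondrial genes moved them to 0.013 (genotype in PP), -0.48 (tissue within Ctrl) and -0.252 (interaction). With single libraries left out they ranged over -0.115 to -0.00733 (genotype in PP), -0.234 to -0.0832 (genotype in LP), -0.671 to -0.474 (tissue within Ctrl) and -0.246 to 0.00715 (interaction). The cause was not tested. Where a library left out leaves 1 in a group, that one is assumed to vary like the others. Of 699 alternatives over 45 results of named members, 640 kept the direction and side of the threshold, 55 no longer passed, 4 newly passed and 0 changed sign. Most of the 45 results had not passed in the main fit and so had no call to lose. The 55 losses all fell on results that had passed. These were the average tissue calls, Cox8a within Ctrl and Ndufa3 within Tcf7-KO. Many named members were picked for small p in these data, so their unchanged signs are no independent support. Chosen after seeing the data, the 66 members with under 10% shared sequence were summarised apart. The 2 libraries of each group limit every comparison.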
